A study of Mus musculus with 6 samples.

Results

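The genes described here are the transcriptional cofactors YAP and TAZ, the TEAD factors that carry them to DNA, and 4 genes that this complex is known to switch on. They were found as the entries of the expression table whose gene symbol was Yap1, Wwtr1, Tead1, Tead2, Tead3, Tead4, Ccn1, Ccn2, Ankrd1 or Amotl2, which gave 10 of 19446 genes. All 10 passed the minimum of 10 reads in at least 2 libraries and were tested with 15948 genes in all.

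RNA-sequencing had been performed on cardiac fibroblasts (CFs) cultured from C57BL/6J mice that were 5 weeks old by the sample titles, in 2 groups of 3 libraries. The first group was wild type (WT). The second was CharmeKO, in which a PolyA signal placed in the locus interrupts Charme, a heart long non-coding RNA. Per the methods, explant cultures were started from atrial tissue of 6 littermates aged 4 to 6 weeks, and the growth medium was IMDM with FBS on fibronectin-coated plastic in both groups. Whether each library came from its own set of littermates is not given in the sources used here, so the p-values measure the spread between these 6 cultures.

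YAP and TAZ do not bind DNA by themselves. When the kinase cascade of the Hippo pathway is active, LATS kinases phosphorylate them and hold them in the cytoplasm. When cells spread on a stiff surface and build stress fibres, both proteins move to the nucleus, join a TEAD factor and raise the transcription of genes for matrix-associated proteins and for regulators of the pathway itself. In cardiac fibroblasts this route is known for its part in activation towards myofibroblasts. Much of its control acts on proteins, which RNA-sequencing does not measure.

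No difference between CharmeKO and WT was detected for any of the 10 genes, and the values of both groups overlapped for each of them. Wwtr1, Tead1 and Tead3 were the members whose value was lower in CharmeKO in all 3 same-numbered pairs of libraries, by less than the test could separate from the spread. The widest range belonged to Ccn2, at 11.4-fold between its lowest and highest library, followed by Ankrd1 at 5.09-fold, while Ccn1 ranged over 1.28-fold. The replicate number took 87.7% of the variance of Ccn2 and 91.8% of that of Ankrd1, but 54.65% of that of Ccn1. For Ccn2 and Ankrd1 the libraries numbered 2 were lowest in both genotypes, whereas those numbered 3 were apart for Ccn2.

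The members lie on 7 chromosomes. In GRCm38 with the GENCODE M21 annotation, Yap1 (ENSMUSG00000053110) occupies chr9:7931999-8004596 on the minus strand and Wwtr1 (ENSMUSG00000027803), which encodes TAZ, chr3:57455649-57575910 on the minus strand. Tead1 (ENSMUSG00000055320) spans chr7:112679318-112906807 on the plus strand and Tead2 (ENSMUSG00000030796) chr7:45215753-45233644 on the plus strand. Tead3 (ENSMUSG00000002249) lies at chr17:28331671-28350817 and Tead4 (ENSMUSG00000030353) at chr6:128224288-128300823, both on the minus strand. The target genes are compact by comparison. Ccn1 (ENSMUSG00000028195) covers chr3:145646976-145649981 on the minus strand and Ccn2 (ENSMUSG00000019997) chr10:24595442-24598683 on the plus strand. Ankrd1 (ENSMUSG00000024803) lies at chr19:36111961-36120099 on the minus strand and Amotl2 (ENSMUSG00000032531) at chr9:102716672-102733418 on the plus strand. Each of the 10 is protein coding, and 0 of them share exon bases with another gene on the same strand. The expression table itself carries no coordinates, so these positions belong to the annotation and not to the deposited values.

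TEAD factors recognise the letters GGAATG, which read CATTCC on the other strand. The promoter windows of 3 target genes are shown because they hold these letters close to the start of transcription. Sequences are from RefSeq on GRCm38.p6, 250 bases before to 50 bases after the start, read along the gene's own strand, with every match on either strand in capitals. Ccn1 is at chr3:145649936-145650235 (minus strand), Ankrd1 at chr19:36119795-36120094 (minus strand) and Amotl2 at chr9:102717554-102717853 (plus strand).
Ccn1: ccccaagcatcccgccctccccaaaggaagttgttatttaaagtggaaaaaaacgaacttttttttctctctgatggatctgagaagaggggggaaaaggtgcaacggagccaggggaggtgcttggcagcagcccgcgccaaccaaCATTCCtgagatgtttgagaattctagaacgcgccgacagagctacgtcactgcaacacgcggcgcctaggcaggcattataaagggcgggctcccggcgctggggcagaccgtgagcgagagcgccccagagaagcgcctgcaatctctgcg
Ankrd1: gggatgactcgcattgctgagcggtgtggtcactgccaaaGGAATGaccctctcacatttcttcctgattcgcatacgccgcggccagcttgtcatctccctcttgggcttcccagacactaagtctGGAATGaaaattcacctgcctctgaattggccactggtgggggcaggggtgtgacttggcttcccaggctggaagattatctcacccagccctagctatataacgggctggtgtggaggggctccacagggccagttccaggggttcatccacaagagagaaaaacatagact
Amotl2: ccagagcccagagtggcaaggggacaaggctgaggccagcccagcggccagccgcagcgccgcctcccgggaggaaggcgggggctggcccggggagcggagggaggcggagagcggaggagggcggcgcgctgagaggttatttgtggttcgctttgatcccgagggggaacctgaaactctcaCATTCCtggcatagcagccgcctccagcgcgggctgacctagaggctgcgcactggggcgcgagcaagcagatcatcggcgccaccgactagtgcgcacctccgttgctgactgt

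The Ccn1 window holds 1 match, 103 bases before the start. Ankrd1 holds 2, at 210 and 123 bases before the start, and Amotl2 holds 1 at 65 bases. The RefSeq starts used for Ankrd1 and Amotl2 lie inside the gene models given above, downstream of their first base. Of the 7 members with an entry in the table of promoters, 6 had a match in at least 1 window, and the exception was Tead2. Ccn2, Tead1 and Tead4 had no entry there, so their promoters were not searched. A match was held by 16.6% of the 27025 genes of that table, and 14.7% of the 32851 windows did. In Yap1 the match was 141 bases before the start, in Wwtr1 136 or 170 bases depending on which of its overlapping windows is read, and in Tead3 the nearest upstream match stood at 114 bases. A second motif, the CArG box of serum response factor, was found in 0 of the 10 member windows and in 1.63% of all windows. A match of 6 letters is a description of the sequence and does not show binding.

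**Figure D1:**
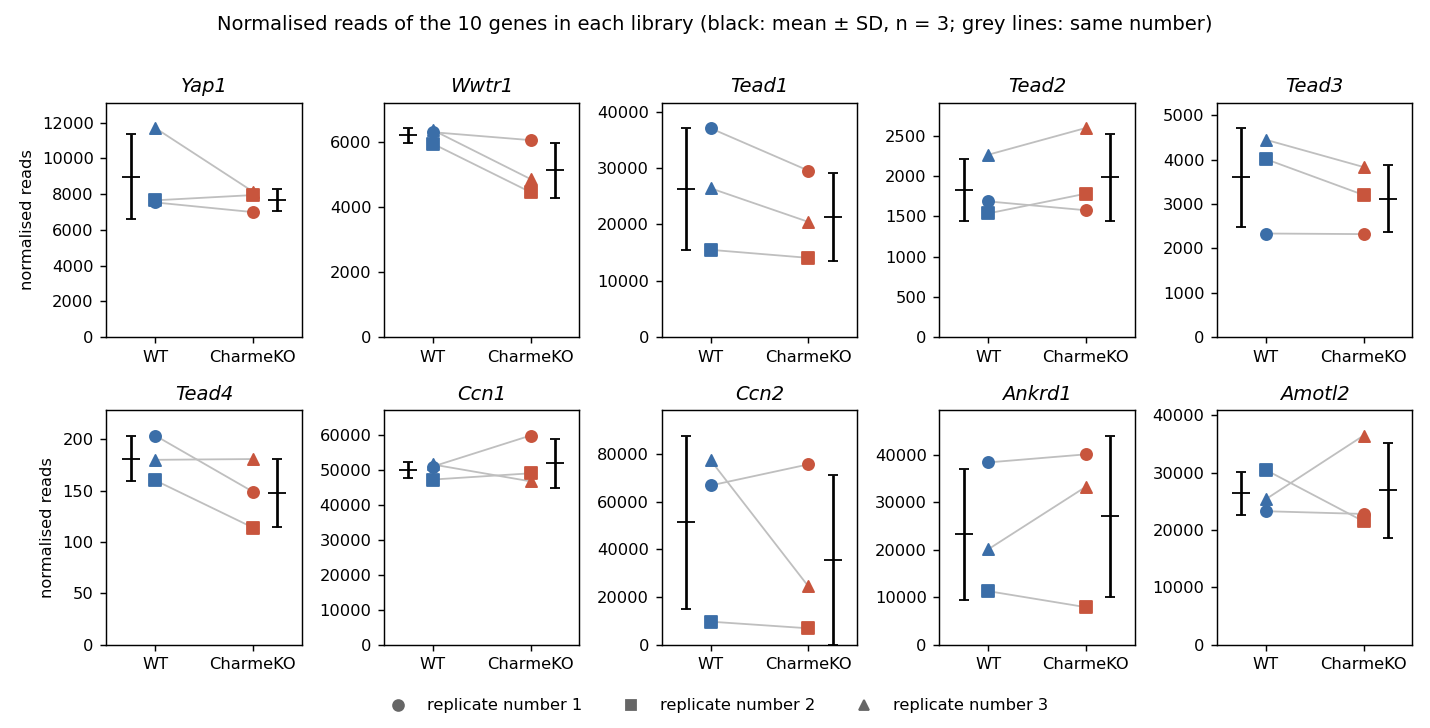
Normalised reads (vertical axes, each starting at 0) of the 10 genes in 3 WT and 3 CharmeKO libraries, where a symbol is 1 library, its shape is the replicate number, grey lines join libraries of the same number and black bars are the mean ± SD (n = 3, the lower bar of Ccn2 in CharmeKO being cut at 0). In every panel the groups overlap, and in the panels of Ccn2, Ankrd1 and Tead1 both libraries numbered 2 lie lowest.

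The 2 cofactors were measured in normalised reads, that is, gene reads divided by a size factor per library. Yap1 had 7536, 7653 and 11709 normalised reads in WT libraries 1, 2 and 3, and 6993, 7949 and 8142 in CharmeKO libraries 1, 2 and 3. One WT library, number 3, stood above the remaining 5, and the groups overlapped. Wwtr1 had 6311, 5955 and 6377 normalised reads in WT and 6066, 4461 and 4865 in CharmeKO. CharmeKO libraries 2 and 3 were below every WT library, whereas CharmeKO 1 was above WT 2.

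The means of Yap1 were 8966 ± 2376 (SD, n = 3) in WT and 7695 ± 615 in CharmeKO, a log2 difference of -0.19 with an SE of 0.220 and a 95% interval of -0.72 to 0.34. For Wwtr1 they were 6214 ± 227 and 5131 ± 834, a log2 difference of -0.29 with an SE of 0.170 and an interval of -0.69 to 0.12. Neither was past the threshold, with limma adjusted p = 0.9999 for both. Here and below, differences are CharmeKO minus WT on the log2(normalised reads + 1) scale, and limma, a linear model fitted over all 15948 tested genes, gave the test. Within same-numbered pairs, Wwtr1 was lower in CharmeKO in 3 of 3, by -0.06, -0.42 and -0.39, and Yap1 in 2 of 3. In these bulk libraries, fewer cells of a type and less RNA per cell cannot be told apart.

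The balance of both cofactors was compared within libraries as the log2 ratio of their reads, which does not depend on how libraries are scaled. The ratio of Yap1 to Wwtr1 was 0.26, 0.36 and 0.88 in WT and 0.21, 0.83 and 0.74 in CharmeKO. These values interleaved. The group means of 0.50 ± 0.33 and 0.59 ± 0.34 (SD, n = 3) differed by 0.10 (exact permutation test, two-sided, p = 1), and 0.1 is the smallest p that 3 against 3 libraries allow.

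Tead1 was the leading TEAD factor in all 6 libraries. It had 37073, 15474 and 26416 normalised reads in WT and 29551, 14046 and 20442 in CharmeKO. Both libraries numbered 2 were lowest and both numbered 1 highest, and the groups overlapped throughout. The log2 difference was -0.28 with an SE of 0.412 and a 95% interval of -1.27 to 0.71 (limma adjusted p = 0.9999). CharmeKO was below WT in each same-numbered pair, by -0.33, -0.14 and -0.37.

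Over all tested genes, deviations from the group mean correlated at r = 0.762 between the libraries numbered 1 and 0.514 between those numbered 2. For number 3, r was 0.217, slightly below the 0.222 of WT 2 with CharmeKO 3. The fit was repeated with the replicate number as a block. The SE of Tead1 then narrowed to 0.113 and its unadjusted p was 0.0629 in limma, with an adjusted p of 0.7997. Wwtr1 had the lowest unadjusted p of the members in that limma fit, 0.0551 with an SE of 0.111 and an adjusted p of 0.7997. In DESeq2 with the same block, an alternative added after seeing the data, Tead1 was the single member with an unadjusted p under 0.05, at 0.0294, and its adjusted p was 0.676. Tead1 therefore passed the threshold in none of these fits.

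Tead3 had 2334, 4013 and 4450.4 normalised reads in WT and 2321, 3204 and 3835 in CharmeKO. Here both libraries numbered 1 were lowest, the opposite end from Tead1. Its log2 difference was -0.18 with an SE of 0.308, and the pairs gave -0.0081, -0.32 and -0.21. Tead2 had 1686, 1536 and 2266 normalised reads in WT and 1576, 1782 and 2599.7 in CharmeKO. The libraries numbered 3 were highest in both groups, and the log2 difference was 0.10 with an SE of 0.253.

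Tead4 was the scarcest member, with 204, 160.2 and 180.2 normalised reads in WT and 149, 114 and 181 in CharmeKO. CharmeKO 1 and 2 were below all WT libraries and CharmeKO 3 was level with WT 3. The log2 difference of -0.31 had an SE of 0.304 and a 95% interval of -1.04 to 0.42. Its raw depth of 116 to 208 reads per library made Tead4 the member with the fewest reads behind it.

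**Figure D2:**
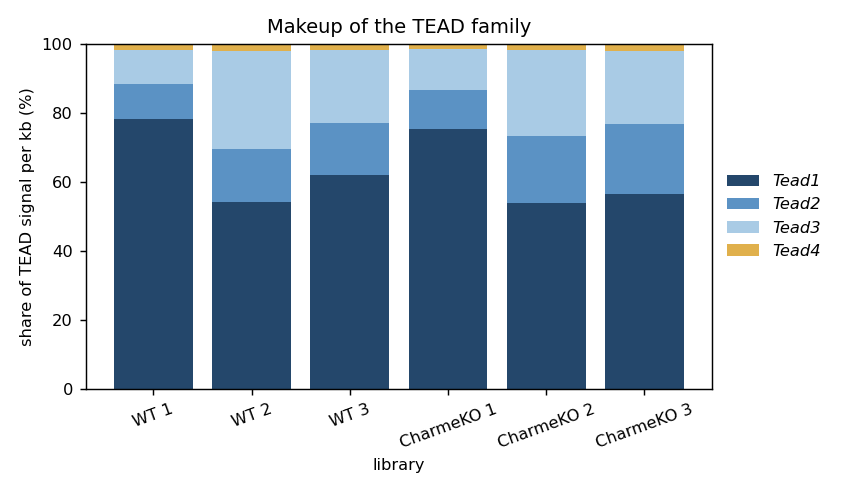
Share of each TEAD gene in the summed TEAD signal per kb of exon (vertical axis, %) in the 6 libraries, 1 stacked bar for each. Tead1 takes 54.0% to 78.3%, the largest share in each bar, and Tead4 the smallest, 1.44% to 2.13%.

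To compare the 4 TEAD genes with each other, normalised reads were divided by the exon length of each gene. Tead1 made up 78.3%, 54.2% and 62.1% of the TEAD signal in WT and 75.2%, 54.0% and 56.4% in CharmeKO. The libraries numbered 1 had the highest shares in both groups. The means of 64.9 ± 12.3% and 61.9 ± 11.6% (SD, n = 3) differed by -3.00 percentage points (exact permutation test, two-sided, p = 0.6). CharmeKO was lower in 3 of 3 pairs, by -3.07, -0.196 and -5.73 points, for which an exact sign-flip test gave p = 0.25, the smallest value that 3 pairs allow. The remainder was split between Tead3 with 9.97% to 28.4% and Tead2 with 10.1% to 20.3%.

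The secreted CCN proteins are matricellular factors and standard readouts of YAP and TAZ activity. Ccn1, also called Cyr61, had 50993, 47266 and 51575 normalised reads in WT and 59874, 49052 and 46747 in CharmeKO. The WT libraries lay inside the CharmeKO range, and the log2 difference was 0.05 with an SE of 0.236 and a 95% interval of -0.52 to 0.61. Ccn2, also called CTGF and a profibrotic factor, had 66758, 9593 and 77404 normalised reads in WT and 75599, 6807 and 24469 in CharmeKO. Libraries numbered 2 were far below the others in both groups, libraries numbered 1 were high in both, and those numbered 3 were apart. The means were 51252 ± 36468 (SD, n = 3) and 35625 ± 35727, and the log2 difference of -0.66 had an SE of 1.11 and a 95% interval of -3.31 to 1.99.

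That interval, from the fit without the replicate block, is the widest among the members. It covers both a several-fold decrease and a several-fold increase of Ccn2. With the block the SE of Ccn2 was 0.377, and its unadjusted p was 0.148 in limma (adjusted p 0.7997) and 0.0673 in DESeq2 (adjusted p 0.876). Of its 3 pairs, the libraries numbered 1 differed by 0.18, those numbered 2 by -0.49 and those numbered 3 by -1.66. One library decided its direction, because without CharmeKO 2 the log2 difference was 0.23. The ratio of Ccn1 to Ccn2 reads, compared only between libraries since it is not divided by length, had log2 values of -0.39, 2.30 and -0.59 in WT and -0.34, 2.85 and 0.93 in CharmeKO. It was higher in CharmeKO in 3 of 3 pairs, by 0.05, 0.55 and 1.52, but the groups overlapped. The means of 0.44 ± 1.61 and 1.15 ± 1.60 (SD, n = 3) differed by 0.71 (exact permutation test, two-sided, p = 0.5, and exact sign-flip test over pairs, p = 0.25).

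Ankrd1 encodes a nuclear and sarcomeric ankyrin repeat protein induced by stretch. It had 38367, 11249 and 20057 normalised reads in WT and 40069, 7865 and 33255 in CharmeKO. As with Ccn2, libraries numbered 2 were lowest and CharmeKO spanned the whole WT range. The log2 difference was 0.09 with an SE of 0.724 and a 95% interval of -1.64 to 1.83, and the pairs differed in sign (0.06, -0.52 and 0.73).

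Amotl2, an angiomotin family protein that binds YAP and holds it back, is itself a target of YAP and thus part of a feedback. It had 23249, 30448 and 25346 normalised reads in WT and 22773, 21479 and 36453 in CharmeKO. CharmeKO had both the lowest and the highest libraries. Its log2 difference was -0.0030 with an SE of 0.274 and a 95% interval of -0.66 to 0.65. The mean of the 4 target genes on the centred log2 scale was 0.47, -0.60 and 0.33 in WT and 0.58, -0.97 and 0.19 in CharmeKO, with both libraries numbered 2 at the bottom.

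**Figure D3:**
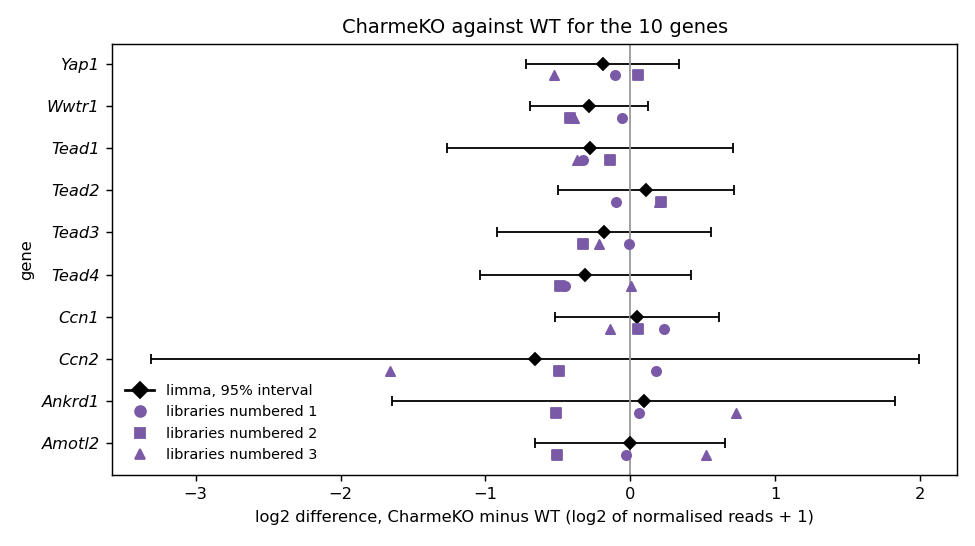
Log2 difference CharmeKO minus WT (horizontal axis) of the 10 genes, with black diamonds for the limma estimate, bars for its 95% interval and purple symbols for the difference within each same-numbered pair. All 10 intervals contain 0, from the narrow one of Wwtr1 (-0.69 to 0.12) to the wide one of Ccn2 (-3.31 to 1.99).

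The counts of members were set beside the same counts over the whole table. At a limma adjusted p under 0.05, 0 of 10 members were called, where 0% of all genes were. At an unadjusted p under 0.05 the count was also 0 of 10, beside 0.897% of all genes (143 of 15948). edgeR on the recovered reads likewise called 0 members and 0% of all genes at its adjusted threshold, with 0 members and 158 of all genes at an unadjusted p under 0.05. DESeq2 called 0 members and 0.0502% of all genes (8 genes). With the replicate block, limma called 0 members and 0% of all genes, with 0 members and 5.37% of all genes at an unadjusted p under 0.05, and DESeq2 called 0 members and 0.401% of all genes (64 genes).

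The groups did not overlap for 0 of 10 members and for 4.11% of all genes, split into 1.98% with CharmeKO lower and 2.14% with CharmeKO higher. A value lower in CharmeKO in all 3 pairs was seen in 3 of 10 members, namely Wwtr1, Tead1 and Tead3, and in 14% of all genes. A value higher in all 3 pairs was seen in 0 members and in 16.4% of all genes. The mean log2 difference was below 0 for 7 of 10 members, against 49.6% of all genes. The median difference of the members was -0.19, beside 0.0022 over all genes. Both values moved with single libraries, and the median changed sign only without CharmeKO 2. Without CharmeKO 2 the difference was below 0 for 5 of 10 members with a median of 0.04, and without WT 3 for 6 of 10 (median -0.01). Without WT 1 it was below 0 for 6 of 10 (median -0.16) and without CharmeKO 1 for 7 of 10 (median -0.23). Without WT 2 the count was 8 of 10 (median -0.30), and without CharmeKO 3 it was 9 of 10 (median -0.25).

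**Figure D4:**
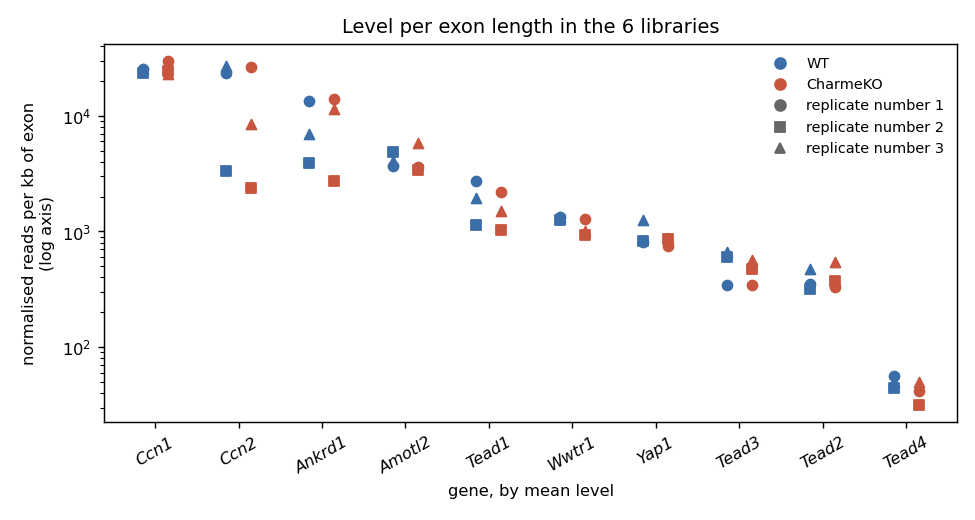
Normalised reads per kb of exon (vertical axis, logarithmic) of the 10 genes, ordered by their mean over the 6 libraries, with WT in blue, CharmeKO in red and the replicate number as the symbol. Target genes take the first 4 places by mean. Between neighbours in this order, gaps without overlap separate Amotl2 from Tead1, Yap1 from Tead3 and Tead2 from Tead4, whereas the range of Tead1 overlaps those of Ccn2 and Ankrd1.

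By level per length, the 4 target genes ranked above their regulators. Ccn1 led with 25219 ± 2374 normalised reads per kb (SD, n = 6 libraries), ahead of Ccn2 with 15183 ± 11675, Ankrd1 with 8712 ± 4853 and Amotl2 with 4234 ± 915. The ranges of these 4 overlapped from each to the next, and Ccn2 was above Ankrd1 in 3 of 6 libraries. Tead1 followed with 1756 ± 652, below Amotl2 in every library and without overlap. Its highest library (2732, WT 1) was above the lowest of Ccn2 (2379) and of Ankrd1 (2725), both CharmeKO 2. Within each library Tead1 was below both genes.

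Wwtr1 had 1187 ± 169 normalised reads per kb and Yap1 899.9 ± 184. Wwtr1 was above Yap1 in 6 of 6 libraries although their ranges overlapped across libraries, and Tead1 was above Wwtr1 in 5 of 6. Then came Tead3 with 500.4 ± 133 and Tead2 with 398 ± 89.6, which overlapped, and Tead4 with 45.8 ± 8.67, which was below Tead2 in each library with no overlap. These levels pool the isoforms of a gene over all its annotated exons, and the order depends on that length. In normalised reads before the division, Yap1 was above Wwtr1 in each library, and Tead1 was above Amotl2 in WT 1, WT 3 and CharmeKO 1.

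The spread of each gene over the 6 libraries was divided into the parts that go with genotype, with replicate number and with neither. For Tead1 the replicate number took 91.2% of the variance of the log2 values, genotype 7.78% and the rest 0.999%. Ankrd1 (91.8%), Tead3 (90.7%), Tead2 (90.0%) and Ccn2 (87.7%) also had most of their variance in the replicate number. Wwtr1 differed in having 53.1% of its variance with genotype, and Tead4 had 34.0%. Amotl2 lay at the other end, with 0.0031% for genotype and 61.7% for neither. Over all tested genes the median shares were 5.91% for genotype and 73.8% for the number, so a large share for the number was common in this table.

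A range of at least 2-fold between lowest and highest library was found in 3 members, Ccn2, Ankrd1 and Tead1, and in 53.1% of all genes. The same 3 genes were those with both libraries numbered 2 below the other 4, a pattern looked for after their values were seen, which 18.4% of all genes shared. The reverse pattern, with both libraries numbered 2 above the other 4, occurred in 0 members and in 16.1% of all genes.

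**Figure D5:**
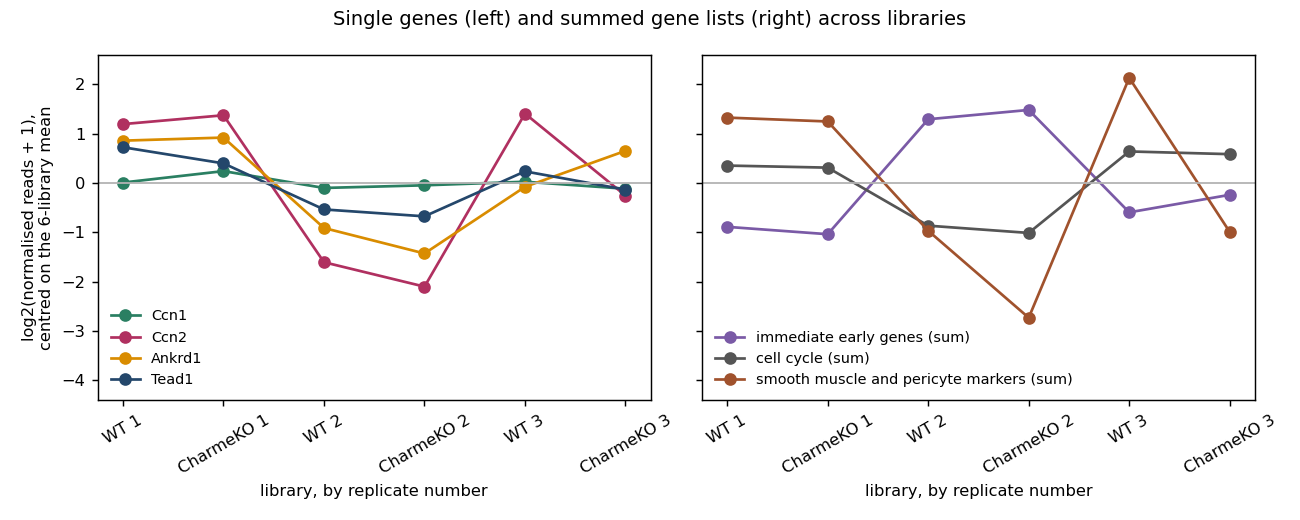
Log2(normalised reads + 1) centred on the mean of the 6 libraries (vertical axis) for Ccn1, Ccn2, Ankrd1 and Tead1 (left) and for the summed reads of 3 gene lists (right), with libraries side by side by replicate number and lines only to guide the eye. Ccn2, Ankrd1, Tead1 and the cell cycle genes are lowest in both libraries numbered 2, where the immediate early genes are highest, and Ccn1 stays near 0.

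Other gene groups moved with the same libraries. Summed over 9 immediate early genes such as Fos and Junb, which serum and handling induce within minutes, WT libraries had 49083, 222495 and 60183 normalised reads and CharmeKO libraries 44269, 253589 and 76958. All 9 of these genes were highest in both libraries numbered 2. The 8 cell cycle genes, which include Mki67 and Top2a, summed to 16941, 7282 and 20659 in WT and 16456, 6576 and 19886 in CharmeKO, and 8 of 8 were lowest in both libraries numbered 2. The part of either group in the levels of Ccn2, Ankrd1 and Tead1 was not tested.

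Smooth muscle and pericyte markers, which activated fibroblasts share in part, summed to 139638, 28481 and 244005 normalised reads in WT and 132244, 8396 and 28015 in CharmeKO. Like Ccn2, this sum was high in both libraries numbered 1 and in WT 3 and low in the other 3. Acta2 and Tagln made up most of it, and Cspg4, Actg2, Myh11 and Rgs5 did not follow that pattern in every library. Acta2 was at 96903, 18192 and 155862 in WT and 90719, 5415 and 20212 in CharmeKO. The log2 difference was below 0 for 8 of 8, beside 49.6% of all genes. Its median of -1.85 was -1.004 without WT 3, -1.25 without CharmeKO 2 and -2.70 without CharmeKO 1. Of these markers 0 of 8 were called by limma, while 2 of 8 (Cspg4 and Actg2) had an unadjusted p under 0.05, beside 0.897% of all genes. The groups did not overlap for 2 of 8, both lower in CharmeKO, beside 1.98% of all genes. In all 3 pairs 6 of 8 were lower and 0 higher, beside 14% and 16.4%. With the replicate block in limma, 4 of 8 (Acta2, Actg2, Cspg4 and Myh11) had an unadjusted p under 0.05, beside 5.37% of all genes, and 0 an adjusted one. DESeq2 with the replicate block, added after seeing the data, called 2 of 8, both lower in CharmeKO, beside 0.401% of all genes. DESeq2 without the block and edgeR with it called 0 of 8. Their part in the Ccn2 values was not tested.

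The fibroblast label was checked against markers. All 10 fibroblast markers were in the table, with summed levels of 865153 to 1693470 normalised reads in WT and 1136360 to 1555190 in CharmeKO. Col1a1, Col1a2 and Vim made up most of these sums. Over the 6 libraries Thy1 ranged from 2658 to 29470, Tcf21 from 199 to 1764 and Lum from 633 to 11491, while Ddr2 ranged from 11929 to 17702. Cardiomyocyte markers summed to 148 to 594 in WT and 162 to 799 in CharmeKO, and Myh6, Nppa, Myl7 and Mybpc3 had no entry. Endothelial markers reached 91.2 to 201 and 27.8 to 232, haematopoietic markers 1606 to 7649 and 707 to 16521, and mesothelial markers 1549 to 9878 and 703 to 10044. The mesothelial sum was highest in both libraries numbered 1, at 9878 and 10044, where Tead1 and Ankrd1 were also highest, and its part in their levels was not tested. Upk3b, Upk1b and Msln had that pattern. Wt1 was instead highest in both libraries numbered 2 (1011 in WT and 1500 in CharmeKO), and Krt19 was highest in WT 3 (781). The entry taken to be Charme, the single one in the table with an identifier made by transcript assembly, had 5, 15 and 11 reads in WT and 0, 6 and 3 in CharmeKO, so it had few reads in both groups and the groups overlapped.

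Upstream of YAP and TAZ, 25 Hippo kinases and other regulators were all tested, and 0 were called. The log2 difference was below 0 for 19 and above 0 for 6, beside 49.6% of all genes below 0, with a median of -0.07. Without CharmeKO 2 this split was 13 to 12 with a median of -0.02, and without WT 1 it was 14 to 11 with a median of -0.05. With another library left out (WT 2, WT 3, CharmeKO 1 or CharmeKO 3) the median lay between -0.16 and -0.12. All 3 pairs were lower in CharmeKO for 4 of them and higher for 3, beside 14% and 16.4% of all genes. The kinase gene Lats1, whose product phosphorylates YAP and TAZ, had 3943, 4190 and 4290 normalised reads in WT and 3441, 3488 and 3633 in CharmeKO. The groups of Lats1 did not overlap, which held for 1 of 25 regulators and for 4.11% of all genes, and its log2 difference was -0.23 with an SE of 0.134 and a limma adjusted p of 0.9999 (unadjusted p with the block 0.0382).

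Wwc2, a scaffold that helps to activate LATS kinases, had 9517, 7348 and 7533 normalised reads in WT and 8532, 5439 and 5833 in CharmeKO. Its log2 difference was -0.32 with an SE of 0.228, and Taok1, a kinase further upstream, gave -0.28 with an SE of 0.197. Both overlapped between groups. With the replicate block 4 of 25 regulators had an unadjusted p under 0.05, namely Lats1, Wwc2, Fat4 and Dchs1, beside 5.37% of all genes, and 0 an adjusted one. Fat4 and Dchs1, a cadherin pair of receptor and ligand, had log2 differences of opposite sign, -0.77 and 0.61.

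Among vestigial-like cofactors, which compete with YAP and TAZ for TEAD, Vgll3 and Vgll4 were tested. Vgll3 had 19299, 8873 and 14404 normalised reads in WT and 19624, 8860 and 11274 in CharmeKO, lowest in both libraries numbered 2. Vgll4 gave a log2 difference of 0.14 with an SE of 0.325 and Vgll3 one of -0.11 with an SE of 0.397. Vgll2 was under the minimum of reads and Vgll1 had no entry.

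Of 18 other known YAP and TAZ target genes, 2 of which (Lats2 and Ptpn14) are also among the regulators, 0 were called. The log2 difference was below 0 for 11 and above 0 for 7, beside 49.6% of all genes below 0, with a median of -0.10. In all 3 pairs 5 were lower and 2 higher, beside 14% and 16.4% of all genes. The median was -0.02 without CharmeKO 2, -0.03 without WT 3 and -0.05 without WT 1. It was -0.15 without WT 2, -0.10 without CharmeKO 1 and -0.12 without CharmeKO 3. Dock5, which codes for a guanine nucleotide exchange factor, had 3755, 1591 and 4344 normalised reads in WT and 3020, 1046 and 1916 in CharmeKO. Tgfb2, a TGFβ ligand, had 2977, 1418 and 1268 in WT and 1909, 430 and 1093 in CharmeKO. Neither gene separated the groups, and their log2 differences were -0.70 with an SE of 0.511 and -0.86 with an SE of 0.592. With the block, 4 of 18 had an unadjusted p under 0.05 (Tgfb2, Dock5, Igfbp3 and Gadd45a), beside the same 5.37% of all genes, and 0 an adjusted one. Asap1, the remaining gene named by rank, gave -0.33 with an SE of 0.273.

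The CCN family has further members that are not standard YAP targets. Ccn4 had 25714, 10438 and 17562 normalised reads in WT and 24634, 10280 and 5821 in CharmeKO, with a log2 difference of -0.56 and an SE of 0.577. Ccn5 had 19787, 1729 and 3706 in WT and 19733, 3363 and 874 in CharmeKO, and Ccn3 4112, 1237 and 449 in WT and 3597, 801 and 847 in CharmeKO. For all 3 genes the libraries numbered 1 were above the other 4, and 0 of 3 were called. Ccn6 had no entry. Ankrd23, a muscle ankyrin repeat relative of Ankrd1, gave a log2 difference of 0.20 with an SE of 0.618, and Ankrd2 was under the minimum of reads.

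Serum response factor and its cofactors of the MRTF family drive many of the same mechanosensitive genes. Srf gave a log2 difference of -0.31 with an SE of 0.207, Mrtfb -0.07 with an SE of 0.141 and Mrtfa -0.05 with an SE of 0.207. None of these 3 was called by limma, none had an unadjusted p under 0.05, and the same holds for edgeR and DESeq2, where 0 of 3 were called. The named immediate early genes Junb (0.28, SE 0.613), Fos (0.48, SE 1.08) and Ier2 (0.22, SE 0.753) and the named cell cycle genes Top2a (-0.20, SE 0.561), Mcm2 (-0.12, SE 0.321) and Birc5 (0.17, SE 0.638) had log2 differences smaller than their SE.

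For 4 members, the 3 genes with the most similar values over the 6 libraries were looked up by the root mean square (RMS) difference of centred log2 values, among 13444 genes with a range of at least 0.5. For Ccn2 these were Klrg2 (RMS 0.120), Tcf24 (0.255) and Eno1b (0.366). The libraries numbered 2 held few normalised reads of Klrg2 (9.6 in WT and 7.9 in CharmeKO) and of Tcf24 (3.2 and 2.9). Ankrd1 was matched by Unc5b (0.107), S100a10 (0.137) and Gm20276 (0.185), and Tead1 by Tnfaip1 (0.0780), Tex10 (0.0836) and Plaa (0.0859). For the near-constant Ccn1 they were Rpl12 (0.0732), Cope (0.0752) and Tmem11 (0.0764). Ccn1 itself had a range of 0.357, under the minimum of 0.5, so genes as constant as Ccn1 were not compared with it. None of the 12 is a member, and over 6 libraries such likeness is a description only.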

How the data were processed

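Poly(A) RNA of 6 cultures had been sequenced with a directional kit. The authors used STAR for alignment and for reverse-strand gene counts (Ensembl release 87 with Charme added), dropped genes of low abundance and applied DESeq2 normalisation. What they deposited is therefore a normalised read signal, the reads of a gene over 1 size factor per library. The methods name a mouse assembly GRCm39, the submitters' processing notes list GRCm39 and GRCh38, and versions are not given in the sources used here. Gene positions and exon lengths were taken from GENCODE M21 on GRCm38, and promoter sequences from RefSeq on GRCm38.p6.

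Dividing a library by its smallest positive value gave back the reads, and 100% of 116676 values were whole within 1e-06. Totals were 38330019 to 46797446 reads per library. A count of 0 allows up to 3 reads, or 0.0641 to 0.0783 CPM, and this covers counting error only, since reads carried no molecular identifiers.

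Groups and replicate numbers came from sample titles. The 15948 of 19446 genes that reached 10 reads in 2 or more libraries entered limma (mean-variance trend, genotype as the only term) on log2(normalised reads + 1), two-sided, with Benjamini-Hochberg adjustment over all of them and a threshold of 0.05. On this scale, changes at low read numbers look smaller than they are. edgeR's quasi-likelihood test on the recovered reads, an added alternative, called 0 genes. Ratios and shares were compared with two-sided exact permutation tests of the genotype labels. Deviations of same-numbered libraries from their group means correlated at r = 0.762, 0.514 and 0.217, each over 0.1, so the numbers were taken to pair the libraries, although WT 2 with CharmeKO 3 reached 0.222, slightly above the last of these. The limma fits with and without the replicate block were run on simulated data, and the other tests were not.

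The members and gene lists were chosen with earlier results of these data known. All members are named, with up to 3 genes of lowest p in each list that is not a marker list, and the 3 genes nearest in pattern to Ccn1, Ccn2, Ankrd1 and Tead1. Further genes named in the text were chosen after their values were seen. Alternatives covered the pseudocount, the filter on low reads, scaling, the tool, the replicate block and each library left out. R 4.3.3, limma 3.58.1, edgeR 4.0.16, DESeq2 1.42.0, Python 3.11.15, scipy 1.17.1 and matplotlib 3.10.9 were used.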

Additional observations from a re-analysis of the deposited data

How the results depend on the processing

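In each of the 20 alternatives run, limma, edgeR and DESeq2 called 0 of the 10 members, 0 Hippo regulators and 0 other targets. Over all genes the number called was 0 except with DESeq2 (8 genes) and with DESeq2 and the replicate block (64 genes). The replicate block in limma and in edgeR called 0 genes, and pairing by number changed no call of a member. Leaving out libraries 1 at a time moved the log2 differences between -0.30 and 0.016 for Yap1 (above 0 without WT 3), -0.62 and 0.013 for Tead1 (above 0 without WT 1), -0.11 and 0.27 for Tead2 (below 0 without WT 2 or CharmeKO 3), and -0.47 and 0.016 for Tead3 (above 0 without CharmeKO 1). The range was -0.060 to 0.12 for Ccn1 (below 0 without CharmeKO 1), -1.63 to 0.23 for Ccn2 (above 0 without CharmeKO 2), -0.34 to 0.83 for Ankrd1 (below 0 without WT 2, CharmeKO 1 or CharmeKO 3) and -0.24 to 0.14 for Amotl2 (above 0 without WT 2, CharmeKO 1 or CharmeKO 2). Wwtr1 (-0.41 to -0.19) and Tead4 (-0.47 to -0.14) stayed below 0. The ratio of Yap1 to Wwtr1 ranged from -0.026 to 0.29 (below 0 without WT 1 or CharmeKO 2), that of Ccn1 to Ccn2 from -0.14 to 1.64 (below 0 without CharmeKO 2) and the Tead1 share from -9.68 to 3.72 points (above 0 without WT 1 or CharmeKO 2). Without division by length the Tead1 share differed by -1.75 points. Leaving out both libraries of a number, chosen after seeing the data as were the block fits in edgeR and DESeq2, turned Ccn1 to -0.044 (number 1), Ankrd1 to -0.23 (number 3) and Amotl2 to 0.010 (number 1) and 0.25 (number 2). Amotl2 was also above 0 with plain library totals (0.031), TMM scaling (0.00030), edgeR (0.033) and DESeq2 (0.025). The causes were not tested. With 3 libraries a group the SEs of the members were 0.170 to 1.11 on the log2 scale, and Tead4 rested on the fewest reads, 116 to 208 per library.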
